A study of Homo sapiens with 6 samples.

Results

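ACTB, TBP, HPRT1, PPIA, YWHAZ, GUSB and TFRC are 7 genes that are commonly used as internal references for gene expression. They were taken by gene name from the deposited expression table, where all 7 have 1 row each among 15897 genes. The table holds RNA-seq labelled H1650, the name of an established human lung adenocarcinoma cell line. It has 3 libraries labelled control (genotype given as wild type) and 3 labelled shSETD2. By their label, the shSETD2 cells carry a short hairpin RNA against SETD2, the methyltransferase that trimethylates lysine 36 of histone H3. Per the study's methods, 3 hairpin constructs were cloned into the PLKO.1-TRC vector and stable lines were made with lentivirus. Whether shSETD2 libraries 1, 2 and 3 are different constructs or repeats of a single line is not given in the sources used here, nor is it said that the libraries came from separate cultures. The p-values therefore measure the spread between these libraries, which may be technical. The question asked here is which of the 7 genes stayed level between the groups. It was asked of the FPKM (fragments scaled to gene length and to library size) as deposited and after median ratio scaling. In this scaling each library is divided by the median ratio of its genes to their geometric mean over all libraries. Only genes detected in every library entered that median.

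A reference gene serves to correct for the amount of RNA in a sample, so its own level should be the same in the samples that are compared. The 7 genes have unrelated roles. ACTB encodes β-actin of the cytoskeleton, PPIA the peptidyl-prolyl isomerase cyclophilin A, and YWHAZ the adaptor protein 14-3-3 zeta. TBP encodes the TATA-binding protein that nucleates transcription complexes. HPRT1 encodes a purine salvage enzyme, GUSB the lysosomal hydrolase β-glucuronidase, and TFRC the transferrin receptor that brings iron into the cell. Real-time qPCR in the study used GAPDH, and western blotting used the GAPDH and histone H3 proteins as loading controls. The RNA of GAPDH is described with the other reference genes.

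Some facts about the libraries stand before the values. SETD2, the targeted gene, had 18.0, 10.2 and 17.6 FPKM in the control and 8.97, 8.09 and 12.2 FPKM in the shSETD2 libraries. The groups overlapped (limma log2 fold change -0.58 ± 0.24 SE, adjusted p = 0.0641), and the libraries are named by their labels. The study itself reported lower SETD2 in H1650 cells with its hairpins, by real-time qPCR and western blotting. It also reported similar knockdown by its constructs. Which of those cells were sequenced is not given in the sources used here. Cell type markers also differed between the groups. Of 12 epithelial markers 10 were listed, of which 3 had a mean of at least 1 FPKM in the control and 5 in the shSETD2 libraries, with summed levels of 14.9 to 17.0 and 408 to 462 FPKM. Of 12 lung lineage markers, 2 were listed and 1 reached that level in each group, with sums of 1.89 to 2.45 and 1.18 to 1.27 FPKM, and NKX2-1 was at 0 in every shSETD2 library. Of 12 markers of embryonic kidney lines, 9 and 6 reached it, with sums of 140.0 to 145.0 and 69.3 to 76.5 FPKM, and SIX2, EYA1, SALL1, LIN28B, NEFL and NEFM were at 0 in every shSETD2 library. Of 12 fibroblast markers 6 were listed, and 3 and 0 reached it, with sums of 13.6 to 14.4 and 0.916 to 1.01 FPKM, and TWIST1 was at 0 in every shSETD2 library. These markers moved with the groups in every comparison that follows, and their part in the results was not tested. In bulk RNA, a different mixture of cells and a different amount of RNA per cell cannot be told apart. Whether both groups are the same kind of cells was not tested. A difference of cells between the groups cannot be told apart from an effect of the hairpin in this design.

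Among the 7 genes, 4 were higher in the shSETD2 libraries and 2 were lower with the FPKM as deposited, and GUSB was the only one that was not called. A gene was called at an adjusted p under 0.05 in limma, fitted on log2(FPKM + 1) over 14068 genes. This count stands against 78.6% of all genes tested that were called, with 26.8% higher and 51.8% lower, so a called reference gene was no rarity here. After median ratio scaling all 7 were called, 5 higher and 2 lower, where 76.1% of all genes were called, 37.7% higher and 38.3% lower. The 7 genes had a median log2 fold change of 0.48 as deposited and 0.84 after scaling, against -0.29 and -0.01 for all genes tested. Scaling moved the log2 fold change of each of the 7 upward, as it must for any expressed gene. Its factors were 1.13 for each control library and between 0.878 and 0.889 for the shSETD2 libraries. Regardless of sign, the median size of the log2 fold change was 0.86 for the 7 genes and 0.63 for all genes as deposited, and 0.90 and 0.58 after scaling.

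A gene was described as level where the 95% limma interval of its log2 fold change lay within 1.5-fold in either direction (0.585 on the log2 scale). GUSB and PPIA were level with the FPKM as deposited, and GUSB and TBP after median ratio scaling. GUSB was thus the only one of the 7 that was level on both scales. The share of all genes tested that were level on both scales was not counted. Being level on both, here and in the lists below, is therefore not shown to be particular to a gene or list. Of all genes tested, 29.5% were level as deposited and 32.5% after scaling, and 2 of 7 reference genes is close to those shares. The groups did not overlap for 6 of the 7 genes as deposited and for all 7 after scaling, against 80.9% and 78.8% of all genes tested. An exact permutation test over 3 libraries against 3 cannot give a p below 0.1, and it gave 0.1 for each of the 6 genes and 0.8 for GUSB with the deposited values.

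**Figure D1:**
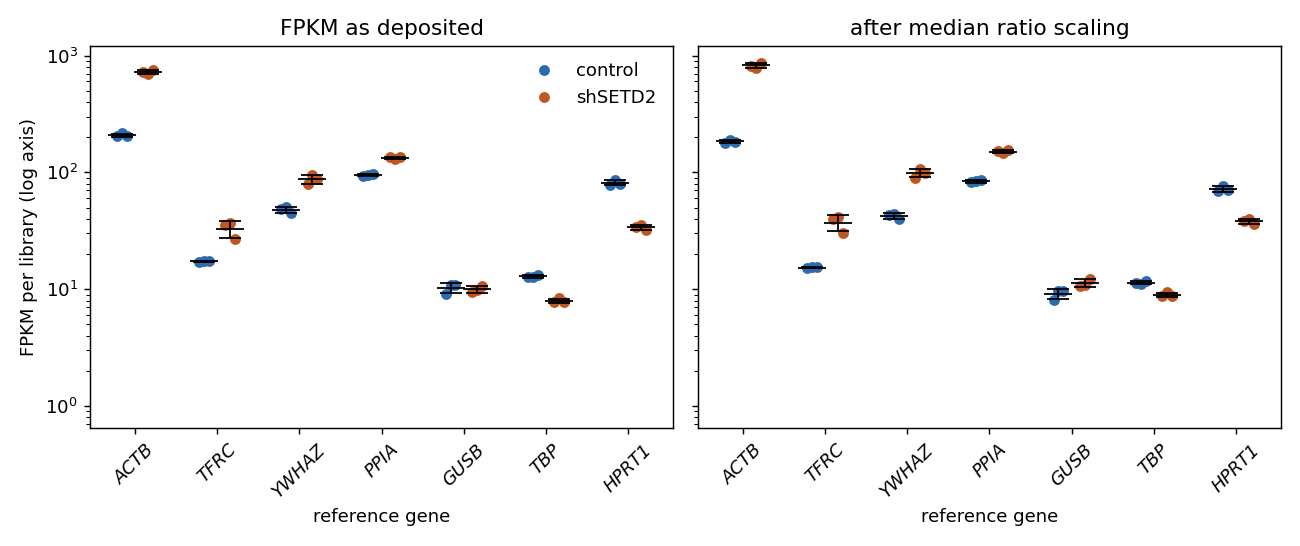
FPKM of the 7 reference genes in each library on a log axis, as deposited (left) and after median ratio scaling (right), with points for libraries, horizontal bars for the means and error bars for the SD (n = 3). As deposited, the groups overlap for GUSB alone, and after scaling the 3 shSETD2 libraries lie above the 3 control libraries for GUSB too.

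By level, the order in the control libraries was ACTB, PPIA, HPRT1, YWHAZ, TFRC, TBP and GUSB, and no neighbours in this order overlapped. In the shSETD2 libraries it was ACTB, PPIA, YWHAZ, HPRT1, TFRC, GUSB and TBP, where HPRT1 and TFRC overlapped. Thus YWHAZ passed HPRT1 and GUSB passed TBP, and FPKM, being scaled to length, permits this comparison between genes.

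ACTB (ENSG00000075624.13_3), on chromosome 7 of GRCh37 (minus strand, 5566782 to 5603415), encodes the cytoplasmic actin that builds filaments in most cells. It had the highest level of the 7 genes and ranked 23 among all genes by mean FPKM. ACTB was at 203, 215 and 207 FPKM in the control libraries and at 727, 701 and 754 FPKM in the shSETD2 libraries. The groups lay far apart compared with the spread inside each, which was 3.00% and 3.60% of the mean (coefficient of variation). The mean rose 3.49-fold, from 208 ± 6.25 to 727 ± 26.2 FPKM (SD, n = 3), and limma gave 1.80 ± 0.038 (SE) as the log2 fold change (adjusted p = 1.09e-07). After median ratio scaling the rise was 4.47-fold, or 2.15 ± 0.041 (SE) in limma (adjusted p = 7.12e-08). As deposited, 89.9% of all genes tested had a smaller log2 fold change in either direction.

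The nearest relative of ACTB is ACTG1, which encodes the other cytoplasmic actin. Their coding sequences in GRCh37 have 1128 bases each (transcripts ENST00000646664.1_6 and ENST00000573283.7_11), of which 1029 (91.2%) are identical, and the longest stretch without a difference is 59 bases. How the quantification placed fragments that match both genes is not given in the sources used here, so the split between them is uncertain. The first 90 coding bases are shown 5′ to 3′ to make the likeness visible, with the 17 positions that differ in capitals. Those of ACTB lie on the minus strand at chr7:5569199-5569288 and those of ACTG1 on the minus strand at chr17:79479291-79479380, both inside a coding exon.
ACTB: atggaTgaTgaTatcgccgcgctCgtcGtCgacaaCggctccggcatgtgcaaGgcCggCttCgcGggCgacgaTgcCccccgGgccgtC
ACTG1: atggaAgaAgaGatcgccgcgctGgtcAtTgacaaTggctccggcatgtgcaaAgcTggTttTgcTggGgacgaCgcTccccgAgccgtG

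ACTG1 was also higher in the shSETD2 libraries, at 266 ± 14.7 against 164 ± 3.36 FPKM (SD, n = 3), and limma gave 0.69 ± 0.046 (SE) as its log2 fold change (adjusted p = 1.49e-05). Of 6 other actin genes, 3 were listed and 2 tested. The second was ACTA2, the smooth muscle actin, which fell from 4.43 ± 0.786 to 1.12 ± 0.114 FPKM (log2 fold change -1.34, adjusted p = 5.78e-05). The cytoplasmic actins and the smooth muscle actin thus moved in opposite directions, on both scales.

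TFRC (ENSG00000072274.12_2), on chromosome 3 (minus strand, 195754054 to 195809060), encodes the receptor that takes up iron-loaded transferrin, and its messenger RNA is known to be stabilised when the cell lacks iron. TFRC was at 17.2, 17.5 and 17.4 FPKM in the control libraries, the tightest values of the 7 genes (coefficient of variation 0.709%). In the shSETD2 libraries it was at 35.2, 36.9 and 26.7 FPKM, the widest spread (16.5%), since shSETD2 library 3 lay well below the other two. All 3 lay above every control library. The mean rose 1.90-fold, from 17.4 ± 0.123 to 33.0 ± 5.45 FPKM (SD, n = 3). In limma this was 0.87 ± 0.12 (SE) on the log2 scale, with an adjusted p of 0.000497. After scaling the log2 fold change was 1.21 (adjusted p = 8.82e-05).

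Of 16 other genes of iron uptake and storage 15 were listed and 14 tested. Of these, 10 were higher, 3 lower and 1 not called, with a median log2 fold change of 0.68. Among all genes tested, 26.8% were higher and 51.8% lower. After scaling, 12 rose and 2 fell, against 37.7% and 38.3% of all genes tested. The ferritin chains, which store iron, rose from 234 ± 3.71 to 578 ± 23.9 FPKM for FTL and by 1.92 on the log2 scale for FTH1, from 79.0 ± 12.3 FPKM (adjusted p = 3.59e-07 and 5.78e-06 in limma). HMOX1, which frees iron from heme, rose from 10.8 ± 0.607 to 141 ± 6.27 FPKM. IREB2, an iron-regulatory protein that binds the TFRC message, fell from 17.7 ± 0.459 to 4.67 ± 0.316 FPKM (log2 fold change -1.72, adjusted p = 6.42e-07).

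YWHAZ (ENSG00000164924.17_4) is a gene of chromosome 8 (minus strand, 101928753 to 101965616). It was at 48.4, 50.3 and 44.7 FPKM in the control libraries and at 80.1, 95.1 and 87.6 FPKM in the shSETD2 libraries. The lowest shSETD2 library lay above the highest control library by more than the range of either group. Its mean rose 1.83-fold, from 47.8 ± 2.82 to 87.6 ± 7.48 FPKM (SD, n = 3), and limma gave 0.86 ± 0.074 (SE) as the log2 fold change (adjusted p = 5.55e-05). The scaled log2 fold change was 1.21 (adjusted p = 1.03e-05). The other 14-3-3 genes, whose products bind phosphorylated proteins, were all tested. Of these 6, 3 were higher, 1 lower and 2 not called as deposited, and after scaling 4 were higher, 0 lower and 2 not called. The shares over all genes tested were 26.8% higher and 51.8% lower as deposited, and 37.7% and 38.3% after scaling. SFN, the epithelial 14-3-3 sigma, rose from 0.372 ± 0.102 to 243 ± 17.9 FPKM (log2 fold change 7.47, adjusted p = 1.09e-08). YWHAE was at 97.4 ± 2.11 and 102.0 ± 1.97 FPKM, and YWHAQ fell from 99.3 ± 2.03 to 79.2 ± 3.59 FPKM, a log2 fold change of -0.32. YWHAE and YWHAQ were level on both scales, and for YWHAQ the log2 fold change was 0.03 after scaling, with the sign turned and an adjusted p of 0.567.

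PPIA (ENSG00000196262.13_2) is a gene of chromosome 7 (plus strand, 44836279 to 44864163). Its product, cyclophilin A, is an abundant folding catalyst and the target of cyclosporin. PPIA was at 92.8, 94.8 and 97.7 FPKM in the control libraries and at 134, 130.5 and 135 FPKM in the shSETD2 libraries. Every shSETD2 library was higher, and the spread inside the groups was only 2.57% and 1.94% of the mean. The mean rose 1.40-fold, from 95.1 ± 2.44 to 133 ± 2.59 FPKM (SD, n = 3), and the log2 fold change was 0.48 (95% interval 0.40 to 0.56, adjusted p = 1.87e-05 in limma). PPIA was therefore called higher and at the same time level within 1.5-fold. With median ratio scaling the log2 fold change was 0.84 (95% interval 0.75 to 0.92, adjusted p = 2.20e-06), outside that limit. Without control library 3, or with upper quartile scaling or no intensity trend, PPIA was not level.

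Of 15 other cyclophilins listed, 14 were tested, with 3 higher, 10 lower and 1 not called, and a median log2 fold change of -0.46. Among all genes tested, 26.8% were higher and 51.8% lower. After scaling 3 rose and 6 fell, against 37.7% and 38.3% of all genes tested, and the median was -0.13. PPIB, the cyclophilin of the endoplasmic reticulum, rose from 86.9 ± 3.27 to 103 ± 2.73 FPKM (log2 fold change 0.25, adjusted p = 0.00120). PPIF, the mitochondrial one, rose from 29.8 ± 1.04 to 34.0 ± 1.89 FPKM (log2 fold change 0.18, adjusted p = 0.0164). NKTR, a large nuclear protein with a cyclophilin domain, fell from 12.3 ± 0.205 to 5.13 ± 0.588 FPKM (log2 fold change -1.12, adjusted p = 1.84e-05).

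GUSB (ENSG00000169919.16_2) is a gene of chromosome 7 (minus strand, 65425671 to 65447301). It encodes the lysosomal enzyme that removes glucuronic acid from glycosaminoglycans. GUSB was at 9.11, 10.9 and 11.0 FPKM in the control libraries and at 9.44, 9.75 and 10.7 FPKM in the shSETD2 libraries, so the groups covered almost the same range. The means were 10.3 ± 1.05 and 9.98 ± 0.683 FPKM (SD, n = 3). The log2 fold change was -0.04 (95% interval -0.25 to 0.16, adjusted p = 0.675 in limma), and 3.44% of all genes tested had a smaller one. After scaling, the control libraries were at 8.06, 9.59 and 9.71 and the shSETD2 libraries at 10.7, 11.0 and 12.2 scaled FPKM. The groups then no longer overlapped, and the log2 fold change was 0.28 (95% interval 0.07 to 0.49, adjusted p = 0.0223). GUSB varied more inside the control group than any other of the 7 (coefficient of variation 10.1%).

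Of 19 other lysosomal hydrolases, all tested, 9 were higher, 9 lower and 1 not called, with log2 fold changes between -2.29 and 2.68. Higher and lower were 26.8% and 51.8% of all genes tested. Level were 3 of the 19 as deposited and 5 after scaling, against 29.5% and 32.5% of all genes tested. CTSA, a protective protein of lysosomal enzymes, rose from 4.37 ± 0.181 to 33.5 ± 1.55 FPKM (adjusted p = 8.29e-08 in limma). GAA, the acid glucosidase that breaks down glycogen, fell from 21.9 ± 1.45 to 3.68 ± 0.235 FPKM. GLA, an α-galactosidase, fell from 33.4 ± 1.18 to 22.0 ± 1.61 FPKM (adjusted p = 4.14e-07 and 0.000141). GLB1, IDS and SGSH were level on both scales, as GUSB was.

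TBP (ENSG00000112592.13_3) is a gene of chromosome 6 (plus strand, 170863390 to 170881958). TBP was at 12.7, 12.6 and 13.3 FPKM in the control libraries and at 7.76, 8.38 and 7.73 FPKM in the shSETD2 libraries. All shSETD2 libraries were lower, with a coefficient of variation of 2.81% and 4.58% inside the groups. The mean was 12.9 ± 0.361 FPKM in control and 7.95 ± 0.364 FPKM in shSETD2 (SD, n = 3), and the log2 fold change was -0.63 (95% interval -0.75 to -0.51, adjusted p = 3.63e-05 in limma). After median ratio scaling it was -0.31 (95% interval -0.43 to -0.19, adjusted p = 0.00122), so TBP was still called lower while level within 1.5-fold. At the level of TBP and GUSB, which had the lowest FPKM of the 7, adding 1 before the logarithm understates a fold change slightly, and the ratio of the deposited means was 1.62-fold for TBP.

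TBP joins the TAF proteins in the general factor TFIID. Of 19 genes of TFIID subunits and other TBP partners, all tested, 4 were higher, 9 lower and 6 not called, with a median log2 fold change of -0.20. After scaling 7 were higher and 6 lower. Among all genes tested, 26.8% were higher and 51.8% lower as deposited, and 37.7% and 38.3% after scaling. TAF7 had the highest level and was at 35.4 ± 1.46 and 33.3 ± 1.83 FPKM (log2 fold change -0.09, adjusted p = 0.192 in limma). TAF13 rose from 16.4 ± 0.453 to 24.9 ± 2.09 FPKM and TAF6 from 8.99 ± 0.446 to 18.3 ± 1.03 FPKM (adjusted p = 0.000226 and 1.20e-05). TAF5 fell to 1.59 ± 0.0986 FPKM (log2 fold change -1.95, adjusted p = 8.81e-07). TAF1, TAF7, TAF9B, TAF12, GTF2A2 and GTF2B were level on both scales.

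HPRT1 (ENSG00000165704.14_2) is a gene of chromosome X (plus strand, 133594183 to 133654543). It encodes the transferase that returns hypoxanthine and guanine to nucleotides. HPRT1 was at 78.6, 86.9 and 80.0 FPKM in the control libraries and at 33.8, 35.6 and 32.0 FPKM in the shSETD2 libraries. No other of the 7 genes fell as far. The mean went from 81.8 ± 4.45 to 33.8 ± 1.78 FPKM (SD, n = 3), 2.42-fold higher in control, and limma gave -1.25 ± 0.057 (SE) as the log2 fold change (adjusted p = 2.75e-06). With scaling it was -0.90 (adjusted p = 9.89e-06).

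Of 14 other genes of purine salvage and its supply, all tested, 3 were higher, 7 lower and 4 not called, with a median log2 fold change of -0.25. After scaling 6 rose and 6 fell, and the median was 0.08. Among all genes tested, 26.8% were higher and 51.8% lower as deposited, and 37.7% and 38.3% after scaling. IMPDH2, which makes guanine nucleotides, fell from 95.6 ± 2.32 to 40.7 ± 1.78 FPKM. PRPS1, which makes the phosphoribosyl donor that HPRT1 uses, fell from 56.0 ± 3.25 to 23.4 ± 0.170 FPKM. Their log2 fold changes were -1.21 and -1.22 (adjusted p = 9.54e-07 and 1.62e-06 in limma), close to that of HPRT1. ADK, an adenosine kinase, rose from 10.9 ± 0.618 to 21.7 ± 2.03 FPKM (adjusted p = 4.28e-05). GMPR, a guanosine monophosphate reductase, fell from 1.82 ± 0.368 to 0.0431 ± 0.0405 FPKM (adjusted p = 2.20e-05).

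**Figure D2:**
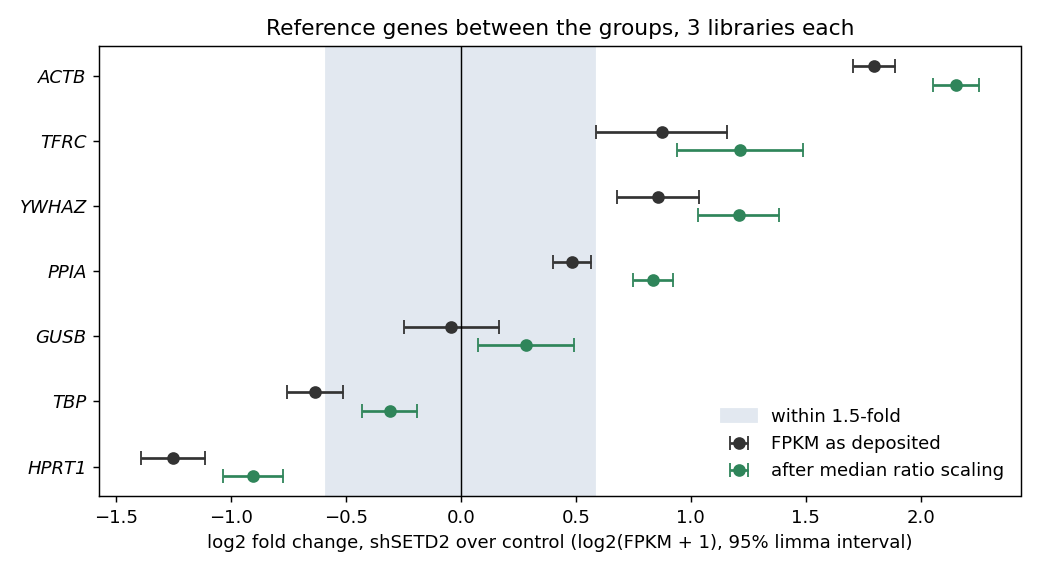
Log2 fold change of each reference gene (shSETD2 over control) with its 95% limma interval, for the FPKM as deposited (black) and after median ratio scaling (green), and the range within 1.5-fold shaded. Scaling shifts every gene to the right, as its library factors do for any expressed gene. GUSB alone stays inside the shaded range on both scales, while PPIA leaves it and TBP enters it.

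The ratio of a pair of genes within a library is free of any scaling of that library, so the 21 pairs of the 7 genes were compared directly. For 20 pairs the log2 ratios of the groups did not overlap, while the SD inside a group ran from 0.018 to 0.34. The share of separate pairs among other genes was not counted, so whether this count is particular to reference genes is not known. The 21 pairs reuse the same 7 genes and are not separate observations. As deposited, the groups did not overlap for 80.9% of single genes tested, which is not a share of pair ratios. The pair without a difference beyond its spread was YWHAZ and TFRC, whose log2 ratio was 1.46 ± 0.084 in control and 1.42 ± 0.27 in shSETD2 (SD, n = 3). Without shSETD2 library 3, whose TFRC was low, the groups of this pair were separate only by a gap far smaller than the SD of either group. The widest difference was that of ACTB and HPRT1, with log2 ratios of 1.37, 1.31 and 1.37 in control and 4.43, 4.30 and 4.56 in shSETD2, which is 8.44-fold. ACTB against TBP came next with 5.65-fold. In 5 of 21 pairs the difference of the mean ratios was under 1.5-fold, namely YWHAZ with TFRC (1.03-fold), PPIA with YWHAZ (1.31-fold), PPIA with TFRC (1.34-fold), PPIA with GUSB (1.45-fold) and TBP with HPRT1 (1.49-fold). The exact permutation test (two-sided) gave its smallest p of 0.1 for 20 pairs and 0.9 for YWHAZ with TFRC, or 0.105 and 0.9 adjusted over the 21 pairs, so this design cannot pass a threshold of 0.05.

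**Figure D3:**
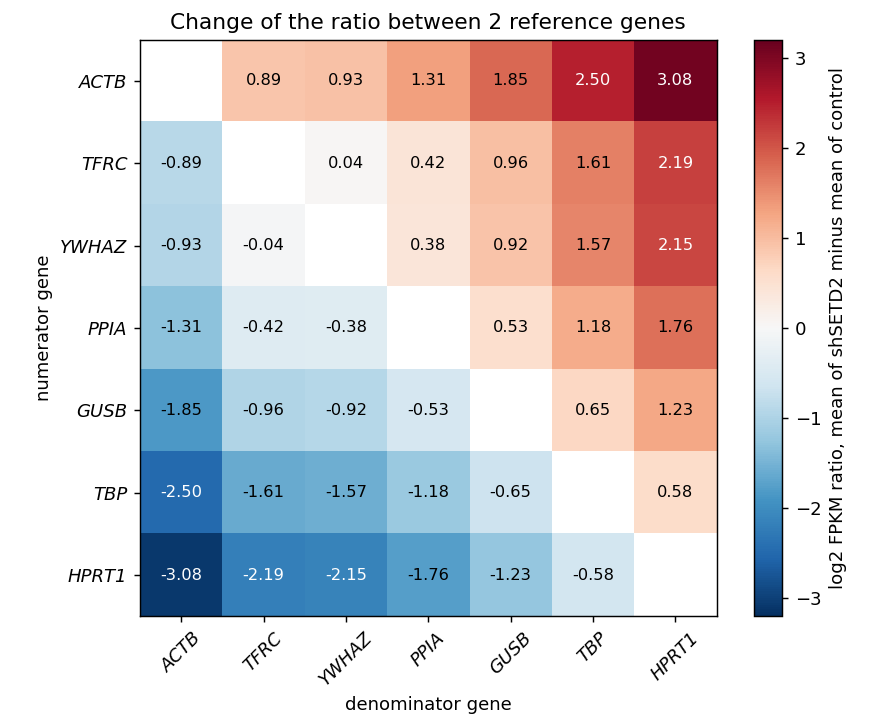
Change of the log2 FPKM ratio between 2 reference genes, as the mean of the shSETD2 minus the mean of the control libraries (n = 3 each), with the numerator gene in rows and the denominator gene in columns. The corner of ACTB over HPRT1 reaches 3.08, and TFRC over YWHAZ is at 0.04.

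The mean SD of the log2 ratios of a gene to the other 6, the stability measure M of the geNorm method, was also taken as a description. Inside the control group M lay between 0.064 for ACTB and 0.14 for GUSB, and inside the shSETD2 group between 0.11 for TBP and 0.26 for TFRC. Over all 6 libraries it lay between 0.53 for PPIA and 1.01 for HPRT1. ACTB, the steadiest gene inside the control group, was the second least steady over all 6 libraries (0.97). When the gene with the highest M was removed step by step, HPRT1, ACTB, TBP, GUSB and PPIA left in that order. YWHAZ and TFRC remained with an M of 0.18, although both were called higher. M measures how far genes keep their ratio to each other, and a pair that rises together scores as well as a level pair.

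The choice of reference set the apparent level of SETD2. When SETD2 was divided by each gene in each library, its level in the shSETD2 libraries was 18.6% of that in control (geometric means) relative to ACTB, 34.5% relative to TFRC, 35.4% relative to YWHAZ and 46.2% relative to PPIA. Relative to GUSB it was 66.9%, close to the 64.9% of the FPKM as deposited, since GUSB itself differed little between the groups as deposited. Relative to TBP it was 105% and relative to HPRT1 157%. The groups did not overlap with ACTB, TFRC, YWHAZ or PPIA as the reference (exact permutation p = 0.1, the smallest possible), and overlapped with GUSB (p = 0.3), TBP (p = 0.9) and HPRT1 (p = 0.2, exact permutation). With the geometric mean of all 7 the level was 52.9% and the groups overlapped. After median ratio scaling SETD2 was at 83.0% of control and the groups overlapped (exact permutation p = 0.4). Control library 2 was low in SETD2 for every reference, at -0.62 to -0.51 relative to the control mean on the log2 scale. Without it the groups did not overlap for 5 of the 7 references. Leaving out 1 library at a time moved the log2 difference relative to TBP between -0.18 and 0.23. In limma, SETD2 was not called as deposited or after median ratio scaling (adjusted p = 0.0641 and 0.377) and was called lower with the geometric mean of the 7 genes as the scale (log2 fold change -0.85, adjusted p = 0.0201).

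**Figure D4:**
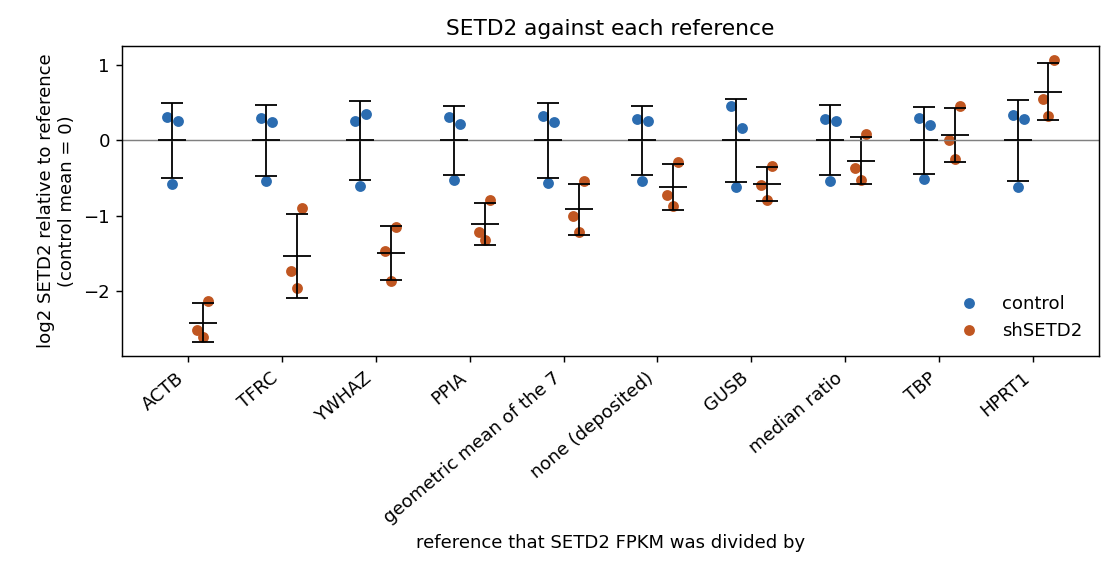
SETD2 on a log2 scale after division by each reference in each library, with the mean of the control libraries set to 0, points for libraries, horizontal bars for means and error bars for the SD (n = 3). From left to right the shSETD2 libraries climb from far below the control libraries (ACTB, 18.6% of control) to above their mean (HPRT1, 157%).

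CXCL1, a chemokine gene that the study followed, kept its direction with every reference. The reference moves its ratio by the same factor as that of SETD2, since both are divided by the same values. Its FPKM of at most 0.118 in control and at least 359 in shSETD2 gave ratios between 1206-fold relative to ACTB and 10179-fold relative to HPRT1, and the groups did not overlap for any reference. With so little signal in control, the size of these ratios has little precision.

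The same choice divided the table as a whole. As deposited, 3774 genes were called higher and 7283 lower in the shSETD2 libraries, which is 34.1% higher, and median ratio scaling gave 5305 and 5394 (49.6% higher). Scaling each library by ACTB alone gave 971 genes higher and 12470 lower (7.22% higher), and scaling by HPRT1 alone gave 9537 higher and 2257 lower (80.9% higher). TFRC, YWHAZ and PPIA gave 12.2%, 13.1% and 19.8% higher, and TBP 64.4%. GUSB gave 35.3%, nearest to the deposited division, which follows from its own deposited log2 fold change of -0.04. The geometric mean of the 7 genes, 4 of which rose, gave 24.4%. Over all genes, the median log2 fold change ran from -1.65 with ACTB to 0.72 with HPRT1, and it was -0.25 with GUSB.

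**Figure D5:**
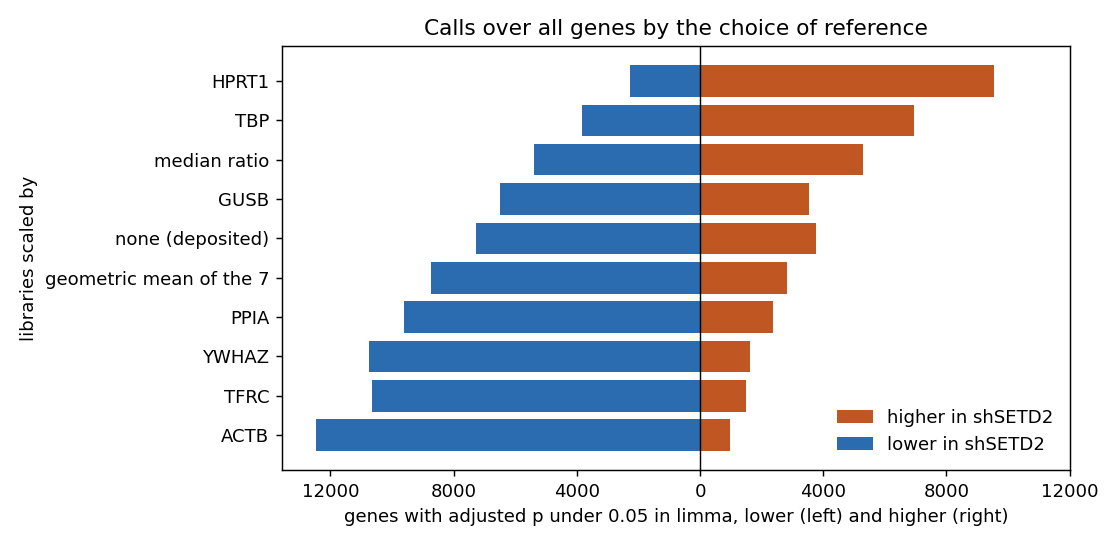
Number of genes called lower (left) and higher (right) in the shSETD2 libraries among 14068 tested, with the libraries scaled by each reference gene, by the geometric mean of the 7 genes, by the median ratio, or as deposited. The bars run from 971 genes higher with ACTB to 9537 with HPRT1.

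GAPDH, the glycolytic enzyme used for normalisation in the study's qPCR, was at 430 ± 8.86 FPKM in the control and 677 ± 26.7 FPKM in the shSETD2 libraries (SD, n = 3). limma gave it a log2 fold change of 0.65 ± 0.036 (SE, adjusted p = 6.86e-06) and 1.01 after scaling, so it was not level on either scale. It belongs to a list of 29 other genes sold as controls on expression arrays, which all passed the filter. Of them, 12 were higher, 12 lower and 5 not called as deposited, and 17, 6 and 6 after scaling. Over all genes tested, 26.8% were higher and 51.8% lower as deposited, and 37.7% and 38.3% after scaling. As deposited 10 of the 29 were level, after scaling 10, and on both scales 6, namely IPO8, CASC3, CDKN1B, EIF2B1, RPL30 and EEF1A1. The level shares over all genes tested were 29.5% as deposited and 32.5% after scaling, close to 10 of 29. EEF1A1, the elongation factor that brings transfer RNA to the ribosome, was at 446 ± 14.2 and 442 ± 35.2 FPKM, with a log2 fold change of -0.02 as deposited and 0.34 after scaling. EIF2B1, a subunit of an initiation factor, had the smallest scaled change of the list, -0.01 (95% interval -0.15 to 0.14), and fell by 0.34 on the log2 scale as deposited (adjusted p = 0.00161). RPL30, a ribosomal protein, and CDKN1B, a cell cycle inhibitor, had scaled log2 fold changes of -0.07 and 0.10 (adjusted p = 0.313 and 0.175). At the other end, CDKN1A, a cell cycle inhibitor, rose from 14.7 ± 0.355 to 113 ± 6.07 FPKM (adjusted p = 5.42e-08).

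Of 11 genes proposed as references from RNA-seq surveys, 6 were higher, 2 lower and 3 not called as deposited, and 9 were higher and 2 lower after scaling. The shares over all genes tested were 26.8% higher and 51.8% lower as deposited, and 37.7% and 38.3% after scaling. EMC7, of a membrane protein insertion complex, and GPI, a glycolytic isomerase, were the 2 of these 11 that were level on both scales. EMC7 was at 17.3 ± 0.899 and 16.9 ± 1.86 FPKM, and GPI at 28.5 ± 0.748 and 28.1 ± 0.981 FPKM (SD, n = 3). C1orf43 fell from 43.8 ± 3.79 to 27.3 ± 0.785 FPKM and was level after scaling only. VCP, a segregase of the proteasome pathway, rose from 41.1 ± 0.954 to 72.2 ± 2.17 FPKM, and the splicing protein gene SNRPD3 fell from 42.4 to 23.4 FPKM (adjusted p = 3.31e-06 and 1.57e-05 in limma). The proteasome subunit gene PSMB4 rose from 49.2 ± 1.21 to 57.7 ± 3.79 FPKM (log2 fold change 0.22, adjusted p = 0.00887).

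Among genes with a mean of at least 5 FPKM, those with the pattern most like each reference gene were found by the root mean square difference of log2(FPKM + 1), centred per gene, over the 6 libraries. Adding 1 shrinks the change of a gene with a low level more, so a close match on this scale can differ in its FPKM ratio. The nearest pattern on this scale was that of CAPN1 to ACTB (difference 0.0088), followed by RGPD8 and CACUL1 to TBP (both 0.013). CAPN1 went from 6.12 to 24.0 FPKM, a larger ratio than the 3.49-fold of ACTB. PPIA was matched by ADAMTS1 (0.018) and PSMB6 (0.019), and ACTB also by ADRM1 (0.028). HPRT1 was matched by NUFIP2 (0.030) and CNOT6L (0.032), YWHAZ by WASL (0.033) and TXNDC9 (0.036), and GUSB by GTF2E2 (0.039) and RREB1 (0.043). TFRC had the loosest matches, CTIF (0.053) and SNX7 (0.096). GTF2E2 was at 8.42 and 8.40 FPKM in the groups. For each gene 7077 others were compared.

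The promoters of reference genes are known to be rich in G and C and often to lack a TATA box, so the 250 bases before the start of each gene were read from RefSeq sequences of GRCh38.p14, which hold 5 of the 7 genes by symbol (TBP, HPRT1, PPIA, GUSB and TFRC) among 35116 promoters of full length. Their GC content was 56.0% for TBP and between 68.8% and 74.4% for the other four, against a median of 58.0%. GGGCGG, on either strand, was found in all 5 and in 42.6% of all promoters. TATAAA, on either strand, was found in those of PPIA and TFRC and in 10.7% of all, and CCAAT, on either strand, in those of TBP and PPIA and in 32.0%. The CArG box was found in none of the 5 and in 1.16% of all. The last 120 bases before the start are shown, 5′ to 3′ along the gene's strand, for the gene that fell most (HPRT1, plus strand, chrX:134460045-134460164), the gene that was level on both scales (GUSB, minus strand, chr7:65982214-65982333) and a gene that rose (PPIA, plus strand, chr7:44796561-44796680), with matches to any of these motifs, on either strand, in capitals. These coordinates are in GRCh38.p14, unlike those of the genes in GRCh37.
HPRT1: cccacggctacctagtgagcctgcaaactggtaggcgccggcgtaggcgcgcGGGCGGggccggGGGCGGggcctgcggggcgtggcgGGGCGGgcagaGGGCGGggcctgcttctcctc
GUSB: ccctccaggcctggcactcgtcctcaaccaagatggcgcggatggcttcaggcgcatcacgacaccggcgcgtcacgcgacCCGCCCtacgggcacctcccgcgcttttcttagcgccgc
PPIA: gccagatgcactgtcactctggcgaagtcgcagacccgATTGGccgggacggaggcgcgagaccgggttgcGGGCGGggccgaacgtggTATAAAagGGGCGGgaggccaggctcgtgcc

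HPRT1 and PPIA thus each held 4 matches to GGGCGG in 250 bases and moved in opposite directions, and GUSB held 2. A match is a description of the letters and not of binding.

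Several of the 7 genes have copies elsewhere in the genome that could take some of their fragments. The GENCODE annotation of GRCh37 names 89 pseudogenes after PPIA, 18 after GUSB, 12 after ACTB, 9 after YWHAZ and 3 after HPRT1, and 0 after TBP and TFRC. None of them is in the deposited table, which lists no class of pseudogene. How fragments that match both a gene and its copies were counted is not given in the sources used here, so the levels of PPIA, GUSB, ACTB, YWHAZ and HPRT1 carry this uncertainty. No other gene of the deposited table overlaps the position of any of the 7.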

How the data were processed

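RNA of 6 libraries labelled H1650, 3 control and 3 shSETD2, was sequenced by the study on the Illumina HiSeq platform from stranded libraries. Per the labels and the paper, the authors mapped reads to hg19 with Hisat2 and quantified genes with Ballgown. They deposited FPKM for 15897 genes in each library. Tool versions and the filter on genes are not given in the sources used here. A second deposited table, with FPKM and the authors' fold changes, p-values and q-values, was not used. FPKM keeps no read number, so depth is unknown and precision rests on 3 libraries a group. The FPKM of a library summed to between 218769 and 224603.

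On log2(FPKM + 1), the 14068 genes whose mean FPKM reached 0.5 were fitted in limma 3.58.1 (R 4.3.3; lmFit, eBayes with trend), using Benjamini-Hochberg adjustment over all genes tested. Fold changes are on this scale unless called ratios. Pair ratios and SETD2 ratios used log2 FPKM without pseudocount and exact two-sided permutation tests (scipy 1.17.1). The fit was tested on simulated data with known changes. The named genes are the 7 reference genes, SETD2, CXCL1 and, from each list written by hand, the genes with the 2 highest levels and the largest rise and fall among those called, with the 3 smallest scaled changes in the lists of reference genes, and the 2 nearest patterns per gene. Genes listed as level on both scales and GAPDH's place in the study were added after values were seen. The 7 genes and all lists were chosen with earlier results of these data known. Same-numbered libraries did not deviate together (Pearson's r of deviations -0.024, 0.018 and -0.0077 across genes), so the numbers were not taken as pairs. Some genes that the rule for named genes or the marker lists cover are not reported here.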

Additional observations from a re-analysis of the deposited data

How the results depend on the processing

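Over 17 alternatives (pseudocounts of 0.1 and 0.01, no filter or a mean of at least 5 FPKM, 4 scalings, a fit without trend, a plain linear model for each gene, a replicate block, and each library left out), ACTB, TBP, HPRT1, PPIA, YWHAZ and TFRC kept their direction and their call in all 17. Their log2 fold changes ran from 1.5 to 2.15 for ACTB, -0.90 to -0.31 for TBP, -1.54 to -0.90 for HPRT1, 0.19 to 0.84 for PPIA, 0.57 to 1.21 for YWHAZ and 0.59 to 1.21 for TFRC. Of the 4 scalings, 1 used the geometric mean of these same 7 genes, so there each gene helped to set its own scale. GUSB was level in all 17, but its sign turned under median ratio scaling (0.28, adjusted p = 0.0223 in limma), upper quartile scaling (0.039), quantile normalization (0.023) and without control replicate 3 (0.0012). With the geometric mean of the 7 genes as the scale it was called lower (-0.31). Leaving out 1 library moved the log2 fold change of GUSB between -0.12 and 0.0012. Instead of 2 reference genes, 1 was level with upper quartile scaling and 1 without an intensity trend, and between 1 and 2 with a library left out. TBP was level under median ratio scaling alone, and PPIA in 13 of the 17. The number of genes called fell from 11057 to 5647 with a mean of at least 5 FPKM, where 7078 genes were tested. With the replicate number as a block, 10976 genes and 6 of the 7 reference genes were called, and the block changed no call among the 7. Depth is unknown, so what it limits cannot be given.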
